A study of Homo sapiens with 4 samples.

Results

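The glucocorticoid receptor (GR) and the heterodimer BMAL1-CLOCK were each immunoprecipitated through a Flag tag from HEK-293T cells, an established human embryonic kidney line, and the methylation of cytosines within their recognition hexamers was read by BisChIP-seq, in which the immunoprecipitated DNA is bisulfite converted before sequencing. The comparison takes every distinct cytosine listed in both anti-Flag libraries, at any distance from a gene and each counted once: 8107 sites for GR (1149 in AGAACA and 6958 in TGTTCT) and 4353 sites for BMAL1-CLOCK (all in CACGTG), together 12460 of the 15177 sites of the 4 libraries. The GR cells carried the vectors GR-pCMV14 and DNMT3A-pLX304 and were given dexamethasone, a synthetic glucocorticoid that binds GR, at 4 nM from 24 h after transfection. The BMAL1-CLOCK cells carried BMAL1-pCMV14, CLOCK-pCMV14 and DNMT3A-pLX304 and received no ligand. Both cultures were collected after a further incubation of 24 h and precipitated with the same anti-Flag antibody. They share the cell line and the overexpressed methyltransferase DNMT3A, whose vector was included since this line has little DNMT3A and somatic cells little non-CpG methylation. Each factor also had 1 control library precipitated with IgG. With 1 library a side there is no replicate error. All tests were therefore run over sites or reads, two-sided, and compare 2 libraries in which factor, motif, ligand and library preparation cannot be told apart.

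Mammalian DNA is methylated mostly at cytosines followed by guanine, and methylation in other contexts is laid down by DNMT3A and DNMT3B and is abundant in neurons and embryonic stem cells. GR is a nuclear receptor that enters the nucleus when it binds a glucocorticoid, where a homodimer recognizes paired half-sites of the glucocorticoid response element (GRE). BMAL1 and CLOCK are basic helix-loop-helix proteins at the centre of the circadian oscillator and bind the palindromic E-box as a heterodimer.

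The 3 hexamers are printed 5′ to 3′ with the measured cytosine in capitals, since its place differs between them.
GRE half-site: agaaCa
Complement of the GRE half-site: tgttCt
E-box: Cacgtg
The measured base was the fifth of each GRE hexamer and the first of the E-box, and it was followed by A in agaaCa and Cacgtg and by T in tgttCt, so all 3 were non-CpG positions. Because agaaCa and tgttCt are complements, the 2 GR tables can read both strands of one hexamer, with the plus-strand cytosine 3 bp above the minus-strand one. The E-box is its own complement, and its 2 cytosines lie 5 bp apart. No other base around the sites was read.

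The level of a site was its methylated reads divided by all its reads (Total), in percent. A read counted as methylated is one whose cytosine stayed unconverted by bisulfite, and no conversion rate is given in the sources used here. The GR sites held 51518 reads, of which 1140 were methylated, and the BMAL1-CLOCK sites held 21042 reads, of which 259 were. Coverage was low in both. Every listed site had at least 4 reads, 79.5% of the GR and 55.7% of the BMAL1-CLOCK sites had exactly 4, and only 76 GR and 53 BMAL1-CLOCK sites had 10 or more. The deepest GR sites lay at the transfected gene NR3C1, which encodes GR, with 3393 and 3324 reads, while the deepest BMAL1-CLOCK site, nearest SPDYE2, had 21. Without the transfected genes and mitochondrial DNA, 8090 GR sites held 36233 reads. The mean level over sites was 1.55% (SD over sites 10.6, n = 8107) for GR and 1.23% (SD over sites 5.51, n = 4353) for BMAL1-CLOCK. These means conceal unlike distributions. Shares of sites were compared at equal Total, with exceptions. The classes of 8 to 9 and of 10 or more reads pool values of Total. Tests by chromosome, by nearest gene and of equal odds ratios ignored Total unless stated.

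At equal Total, more GR sites were highly methylated, at a level of 50% or above, and fewer carried any methylated read at all. There were 122 highly methylated GR sites (1.50%, exact 95% binomial interval 1.25 to 1.79%) and 5 BMAL1-CLOCK sites (0.115%, interval 0.0373 to 0.268%). With sites stratified by each value of Total, the share of GR exceeded that of BMAL1-CLOCK by 1.69 percentage points (95% interval 1.37 to 2.02, exact Cochran-Mantel-Haenszel test, p = 4.43e-24, Benjamini-Hochberg adjusted p = 1.33e-23 over 3 measures, odds ratio 24.9). For sites methylated in all reads, 55 in GR (0.678%) and 2 in BMAL1-CLOCK (0.0459%), the difference was 0.867 points (interval 0.635 to 1.10, exact p = 2.15e-13, adjusted p = 3.22e-13). The share with at least 1 methylated read went the other way, 249 GR sites (3.07%, interval 2.71 to 3.47%) against 242 BMAL1-CLOCK sites (5.56%, interval 4.90 to 6.28%), a difference of -1.94 points (interval -2.74 to -1.14, exact p = 2.24e-07 before and after adjustment). Both directions depended on the cut. With 25% in place of 50%, the difference in the share at or above it was -0.527 points (exact p = 0.0841), and with at least 2 methylated reads in place of 1 it was 1.75 points (exact p = 2.65e-21, chosen after the data were seen). At sites with 4 reads, 25% or above means any methylated read, and at least 2 methylated reads means 50% or above. These alternatives therefore partly repeat the other measure. Strata held by only one library drop out, here and in all later tests with strata, so the counts tested can be lower than those printed. These tests used 8063 GR sites, 112 of them highly methylated, and 4352 BMAL1-CLOCK sites, 5 of them highly methylated. Intervals cover counting error only, since reads without molecular identifiers need not be independent molecules.

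Both GR half-site orientations differed from the E-box in the same directions. AGAACA exceeded CACGTG by 1.12 points for highly methylated sites (exact p = 2.09e-07) and TGTTCT by 1.65 points (exact p = 4.43e-22). For any methylated read the differences were -1.77 points (exact p = 0.0127) and -2.09 points (exact p = 5.62e-08). Between AGAACA and TGTTCT none of the 3 measures passed the same test. The difference in the highly methylated share, AGAACA minus TGTTCT, was -0.217 points (interval -0.876 to 0.443, exact p = 0.668).

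The IgG control of the GR cells lists the same GRE hexamers and so gives the background for the GR side. It held 2715 sites, of which 59 were highly methylated (2.17%, interval 1.66 to 2.79%), a value above that of the anti-Flag library, with which it was not tested here. A methylated read was present at 749 of its sites (27.6%), and 4 were methylated in all reads (0.147%). Its motif mix was unlike that of the anti-Flag library, with 2100 AGAACA and 615 TGTTCT sites against 1149 and 6958. By motif, 2.19% of its AGAACA and 2.11% of its TGTTCT sites were highly methylated, and 29.7% and 20.5% had a methylated read. Its pooled shares therefore weigh the motifs differently from those of the anti-Flag library. The IgG control of the BMAL1-CLOCK cells listed 2 sites, both at RMRP, with 164 of 164 reads methylated, and is no background for the E-box.

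The 2 differences changed with coverage. Among sites with 4 reads, 58 of 6445 GR sites (0.900%) and 5 of 2424 BMAL1-CLOCK sites (0.206%) were highly methylated (Fisher's exact test, adjusted p = 2.57e-04 over 6 read classes). The GR share was 1.78% of 1235 sites at 5 reads, 3.21% of 249 at 6, 9.09% of 55 at 7, 17.0% of 47 at 8 to 9 and 27.6% of 76 at 10 or more. No BMAL1-CLOCK site with more than 4 reads was highly methylated. The count of 0 allows a share of up to 0.280% at 5 reads (0 of 1072 sites), 0.691% at 6 (0 of 434), 1.28% at 7 (0 of 234), 2.21% at 8 to 9 (0 of 136) and 5.66% at 10 or more (0 of 53). In each of these classes GR was higher, with adjusted p from 6.14e-06 to 2.90e-04.

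For any methylated read the order turned with coverage. BMAL1-CLOCK was higher at 4 reads, with 4.70% against 1.99% of sites (Fisher's exact test, adjusted p = 2.09e-10), and at 5 reads, with 5.69% against 3.64% (adjusted p = 0.0325). At 6 reads (6.83% for GR, 5.99% for BMAL1-CLOCK) and 7 reads (10.9 and 8.55%) the difference did not pass the exact test (adjusted p = 0.744 and 0.722). GR was higher at 8 to 9 reads, with 21.3% against 7.35% (Fisher's exact test, adjusted p = 0.0272), and at 10 or more, with 56.6% against 20.8% (adjusted p = 1.71e-04). A test that the odds ratio is the same at 4, at 5 to 7 and at 8 or more reads, added after these values were seen, gave p = 1.76e-17 for any methylated read and p = 2.84e-04 for highly methylated sites (Zelen's exact test). The deep GR sites include 13 mitochondrial positions and 4 at NR3C1 and DNMT3A, none highly methylated and 16 of these 17 with a methylated read. Without them 21 of 59 GR sites with 10 or more reads were highly methylated (35.6%) and 27 had a methylated read (45.8%). Both shares were still above BMAL1-CLOCK in a test without strata of Total (Fisher's exact test, p = 1.93e-07 and 0.00892).

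**Figure D1:**
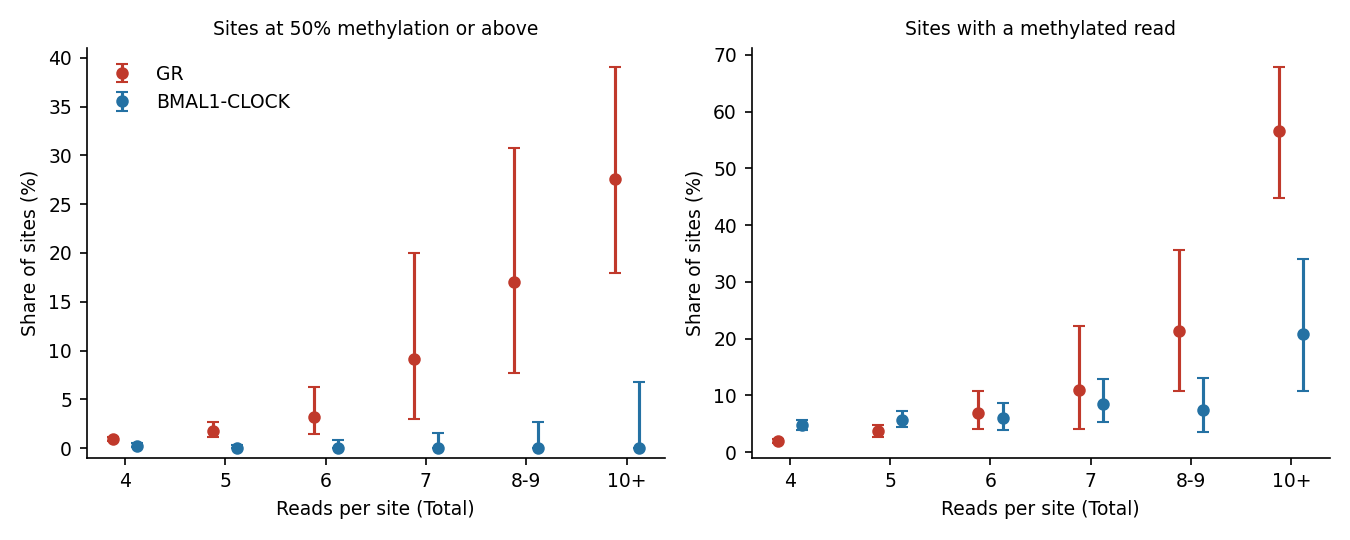
Share of sites (percent) at 50% methylation or above (left) and with at least 1 methylated read (right) against the number of reads per site, for GR (red) and BMAL1-CLOCK (blue). Points are shares and bars exact 95% binomial intervals over sites. The highly methylated GR share goes from 0.900% at 4 reads to 27.6% at 10 or more, while the right panel starts with BMAL1-CLOCK higher and ends with GR higher. In the class of 10 or more, Total reaches 3393 for GR and 21 for BMAL1-CLOCK, so it is not equal there.

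Methylated reads gathered on few sites in the GR library and lay singly on many sites in the BMAL1-CLOCK library. Of the 249 GR sites with a methylated read, 104 had exactly 1 and 145 had 2 or more (58.2%). Of the 242 such BMAL1-CLOCK sites, 230 had exactly 1 and 12 had 2 or more (4.96%). The highly methylated sites held 847 of the 1140 methylated GR reads (74.3%) but 14 of the 259 methylated BMAL1-CLOCK reads (5.41%). The pattern was seen at fixed coverage. Among sites with 4 reads, 6317 GR sites had no methylated read, 70 had 1, 31 had 2, 9 had 3 and 18 had 4. For BMAL1-CLOCK the numbers were 2310, 109, 3, 0 and 2. So 58 of 128 methylated GR sites at this coverage (45.3%, interval 36.5 to 54.3%) were highly methylated against 5 of 114 BMAL1-CLOCK sites (4.39%, interval 1.44 to 9.94%, Fisher's exact test, p = 2.12e-14). At 5 reads the counts were 22 of 45 and 0 of 61 (exact p = 1.34e-10), and at 6 reads 8 of 17 and 0 of 26 (exact p = 1.68e-04). In the IgG control of GR, sites of both motifs with 4 reads were spread as 1581, 454, 43, 8 and 1 over 0 to 4 methylated reads.

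**Figure D2:**
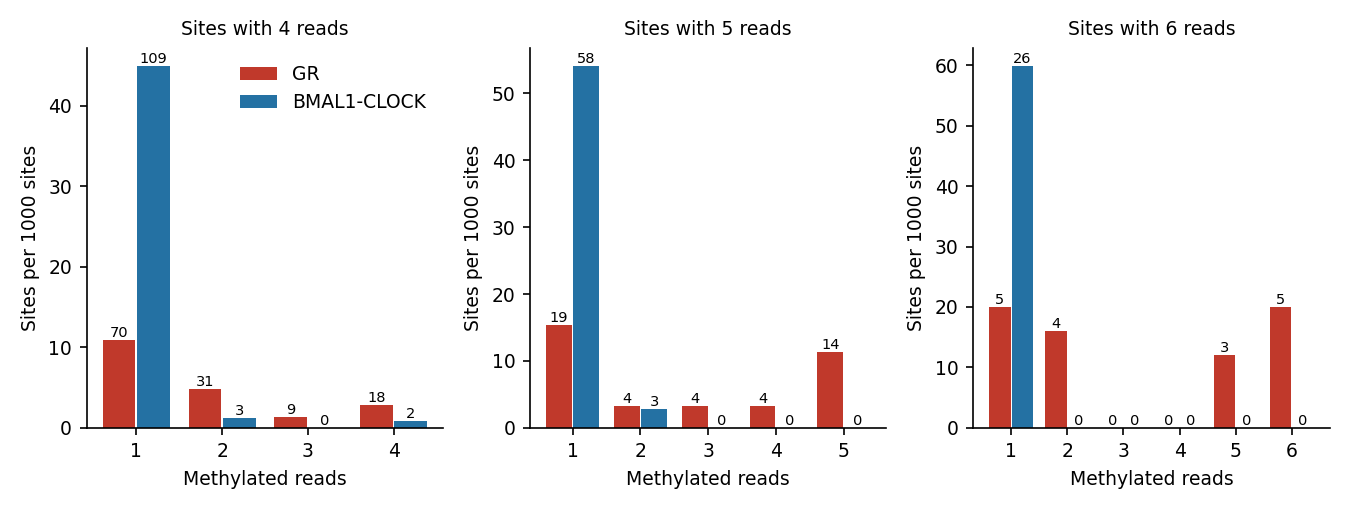
Sites per 1000 sites of the same coverage (bar height, linear scale) by the number of methylated reads, for sites with 4, 5 and 6 reads, GR in red and BMAL1-CLOCK in blue. The number over each bar counts sites, and sites with no methylated read are left out. BMAL1-CLOCK bars stand almost entirely at 1 methylated read, while GR has a further group at all or nearly all reads, such as 14 sites with 5 of 5.

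The 122 highly methylated GR sites had a median level of 92.3%, and 55 of them were at 100%. Their median coverage was 5 reads and they lay on 63 plus and 59 minus strands. Of the 122 sites 24 had another GR site within 200 bp, against 495 of all 8107 GR sites. Such neighbours need not be independent. With 1 site kept of neighbours closer than 200 bp, the difference from BMAL1-CLOCK at equal Total was 1.53 points (exact Cochran-Mantel-Haenszel test, p = 1.73e-20). They were assigned to 108 nearest genes, of which 14 had 2 such sites and none more. Of those 14 genes 5 are given here, chosen after their values were seen. They are FN1 (fibronectin), ACTG1 (cytoplasmic gamma actin) with 14 of 14 and 13 of 14 reads 1661 and 1546 bp from its transcription start site (TSS), PCBP1, an RNA-binding protein gene, with 6 of 9 and 8 of 12 reads, MRPL34, a mitochondrial ribosomal protein gene, with 4 of 4 reads at both sites, and SSR1, a component of the translocon of the endoplasmic reticulum, with 5 of 5 reads at both. ACTG1, EEF1A1 and GAPDH have near-identical copies elsewhere in the genome, so the place of their reads is uncertain. The 2 sites listed under EEF1A1, counted here as 1 of the 14 genes, lay on chromosomes 6 and 9.

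High methylation at a hexamer read on both strands was seen on both or neither. The GR tables held 20 hexamers read on both strands, and 5 of these were highly methylated on both strands and none on one strand alone. At FN1 the minus-strand cytosine was methylated in 67 of 67 reads and the plus-strand cytosine in 75 of 76. At MAP3K13, a kinase gene, the counts were 13 of 13 and 9 of 9, at ALS2CR17 9 of 9 and 10 of 10, at BNIP2, a BCL2-interacting protein gene, 5 of 5 and 11 of 12, and at BAIAP2L1 5 of 6 and 5 of 5. Of the remaining 15 hexamers, 6 had no methylated read on either strand. Below the cut the strands could differ, since the hexamer nearest BC018860 had 1 of 84 reads methylated on the minus and 27 of 77 on the plus strand (35.1%). The 15 also include the transfected gene NR3C1 and mitochondrial hexamers, such as those nearest DQ582265 and AF079515. The E-box table held 61 hexamers read on both strands, of which none was highly methylated, 2 had a methylated read on both strands, 6 on one strand and 53 on neither. This comparison of strands was chosen after the data were seen and has no test. Shares are of listed sites, and the 2 strands of a hexamer are not independent sites.

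The 5 highly methylated BMAL1-CLOCK sites each had exactly 4 reads. Sites nearest LOC151760 (position 111958749 of chromosome 3, hg18) and TPRG1 (position 190553409 of chromosome 3) were methylated in 4 of 4 reads. Those nearest DIRC1 (position 189305562 of chromosome 2), FBXO33, an F-box protein gene (position 39582894 of chromosome 14), and the transcript BC041448 (position 131349048 of chromosome 4) had 2 of 4. Except for DIRC1, at 2330 bp, they lay over 100 kb from the TSS. Next to FN1 in reads among GR sites at that level were one on chromosome 9 with 36 of 36 and one nearest CR624999 with 35 of 36. The former is listed under EEF1A1, the name of a translation elongation factor gene, as is a site on chromosome 6. They were followed by SMOC1 and MAN2B1 with 24 of 25 each, TLR4 with 18 of 18, CTSK, the protease cathepsin K, with 16 of 18, USP36, a nucleolar deubiquitinase, with 15 of 15, and GAPDH, a glycolytic enzyme, with 14 of 15. Among the 10 deepest BMAL1-CLOCK sites the counts ran from 0 of 21 reads at SPDYE2 to 3 of 14 reads at 1 of 4 sites nearest DQ583756 on chromosome 7.

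In percentage points the excess of highly methylated GR sites was smaller in each bin farther from the TSS, while the odds ratio had no such order. The 2 libraries were placed differently, since 11.6% of GR and 7.63% of BMAL1-CLOCK sites lay within 5 kb of a TSS (Fisher's exact test, p = 1.58e-12) and 30.0% and 38.7% lay farther than 100 kb (exact p = 3.74e-22). The median distance was 42157 bp for GR and 63221 bp for BMAL1-CLOCK. At 1 kb or less, 19 of 228 GR sites (8.33%) and 0 of 44 BMAL1-CLOCK sites were highly methylated, which for the latter allows up to 6.82%, and the difference at equal Total of 8.70 points (interval 4.48 to 12.9) just missed the threshold (exact Cochran-Mantel-Haenszel test, adjusted p = 0.0508 over 4 bins). From over 1 to 5 kb the counts were 20 of 711 (2.81%) and 1 of 288 (0.347%), 2.60 points apart (exact adjusted p = 0.0168). From over 5 to 100 kb they were 72 of 4732 (1.52%) and 0 of 2338, which allows up to 0.128%, 1.93 points apart (exact adjusted p = 3.46e-19). Beyond 100 kb the shares were 0.452% (11 of 2436) and 0.238% (4 of 1683), and their difference of 0.165 points (interval -0.228 to 0.558) did not pass (exact adjusted p = 0.566). The odds ratio was 9.35 from over 1 to 5 kb and 1.71 beyond 100 kb, and it had no finite estimate in the other bins, where no BMAL1-CLOCK site was highly methylated (lower limits 0.971 at 1 kb or less and 24.5 from over 5 to 100 kb). Without strata of Total, it was not the same in the 4 bins (Zelen's exact test, p = 0.00292).

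All 19 highly methylated GR sites at 1 kb or less were among 189 TGTTCT sites (10.1%). The count of 0 of 39 AGAACA sites allows up to 7.69%, and the difference between the motifs, tested after the values were seen, missed the threshold (Fisher's exact test, p = 0.05001). The site closest to a start lay 48 bp from that of the transcript BC034684 and had 7 of 9 reads methylated. The EEF1A1 site on chromosome 6 followed at 63 bp with 5 of 5. The bin also held CD81, a tetraspanin gene, at 426 bp with 14 of 14 reads, SF3B5, a splicing factor gene, at 562 bp with 3 of 5, and 2 small nucleolar RNA genes, SNORD21 at 324 bp with 3 of 4 and SNORD73A at 896 bp with 5 of 6. The single BMAL1-CLOCK site with a methylated read in this bin was below 50%. In the IgG control of GR, 4 of 41 sites at 1 kb or less were highly methylated (9.76%), 5 of 148 from over 1 to 5 kb (3.38%), 38 of 1405 from over 5 to 100 kb (2.70%) and 12 of 1121 beyond (1.07%). These IgG counts pool both motifs, and at 1 kb or less they were 2 of 31 AGAACA and 2 of 10 TGTTCT sites. No test was made of the trend in this library.

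For sites with any methylated read, BMAL1-CLOCK was higher in each bin beyond 1 kb. The opposite difference at 1 kb or less did not pass. At 1 kb or less GR had 12.3% and BMAL1-CLOCK 2.27% (difference 7.90 points, exact Cochran-Mantel-Haenszel test, adjusted p = 0.113). Between 1 and 5 kb GR had 4.92% and BMAL1-CLOCK 7.99% (-3.70 points, exact adjusted p = 0.0277), from over 5 to 100 kb 3.09 and 5.39% (-1.32 points, exact adjusted p = 0.0189), and beyond 100 kb 1.64 and 5.47% (-3.54 points, exact adjusted p = 1.36e-09). The odds ratios differed between the bins (Zelen's exact test, p = 1.21e-04). Of the 228 innermost GR sites 8 are mitochondrial, and 7 of these had a methylated read. Without mitochondrial, unplaced and transfected sequence GR had 21 of 217 sites with a methylated read there (9.68%, difference 8.16 points, exact adjusted p = 0.111). For highly methylated sites it then had 19 of 217 and the difference of 8.92 points passed (exact adjusted p = 0.0492). That test used 14 of 212 GR and 0 of 44 BMAL1-CLOCK sites, the rest lying in strata held by GR alone.

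**Figure D3:**
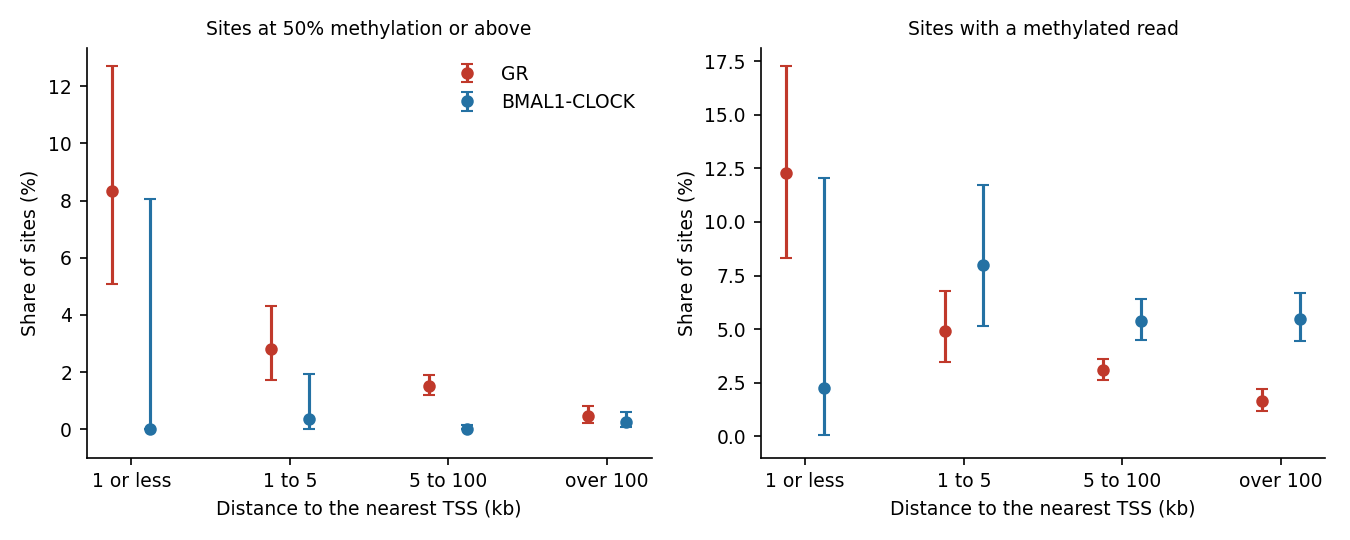
Share of sites (percent) at 50% methylation or above (left) and with a methylated read (right) in 4 bins of distance to the nearest TSS (kb), GR in red and BMAL1-CLOCK in blue. Points are shares and bars exact 95% binomial intervals over sites. Each GR share is lower than that of the bin closer to the TSS, from 8.33 to 0.452% on the left, and the right panel shows BMAL1-CLOCK above GR in the 3 outer bins.

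Across chromosomes 1 to 22 and X, the higher share of highly methylated sites was on the GR side wherever either library had one. GR was higher on 21 of 23 chromosomes, and on chromosomes 16 and 18 neither library had such a site. With the chromosome as a stratum the difference was 1.37 points (interval 1.08 to 1.65, exact Cochran-Mantel-Haenszel test, p = 1.04e-16), and a change of the odds ratio between chromosomes was not detected (Zelen's exact test, p = 0.809). Counts per chromosome were small, and no chromosome passed by itself after adjustment. A methylated read was more frequent in BMAL1-CLOCK on 17 chromosomes and in GR on 6, with a difference of -2.68 points over all (exact p = 6.64e-13). Of the 23 chromosomes tested, 6 were called with BMAL1-CLOCK higher, 26.1% of those tested (Fisher's exact test, adjusted p under 0.05). They were chromosomes 4, 5, 7, 10, 16 and X. These tests ignored Total. With chromosome and Total as strata the differences were 1.43 points for highly methylated sites (exact p = 3.87e-18) and -2.06 points for a methylated read (exact p = 3.04e-08). With Total as a stratum in each chromosome, chromosomes 16 and X were called with BMAL1-CLOCK higher (8.70% of 23) and chromosome 19 with GR higher (4.35%, exact adjusted p = 0.0481 for all 3). The widest gap among the 6 was on chromosome 16, with 3 of 153 GR sites (1.96%) and 8 of 64 BMAL1-CLOCK sites (12.5%, exact adjusted p = 0.0175).

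Chromosome 19 stood apart on the GR side. Of its 88 GR sites 11 were highly methylated (12.5%, interval 6.41 to 21.3%), against 0 of 36 BMAL1-CLOCK sites, which allows up to 8.33%. At equal Total, with 10 of 87 and 0 of 34 sites tested, the difference was 13.1 points (exact p = 0.0279, chosen after the values were seen). Among the GR sites the share on chromosome 19 exceeded that on the other chromosomes by 9.89 points with Total and TSS bin as strata (interval 3.28 to 16.5, exact Cochran-Mantel-Haenszel test, p = 1.65e-06). Without strata, tested for each of the 23 chromosomes, its adjusted p was 1.64e-06 (Fisher's exact test). Both contrasts with strata were run for chromosome 19 alone, after its share had been seen. Its 11 sites were assigned to 9 genes and included MAN2B1, the lysosomal alpha-mannosidase, with 24 of 25 reads, AK095546 with 8 of 8 and 5 of 5, COX7A1, a subunit of cytochrome c oxidase, with 5 of 5, and TICAM1, an adaptor of Toll-like receptors, with 3 of 4. Chromosome 19 also had 44.3% of its GR sites within 5 kb of a TSS, and 6 of the 11 lay there. In the share of all sites, 3 of 23 chromosomes were called (13.0%, Fisher's exact test, adjusted p under 0.05). Chromosome 1 held 16.1% of GR and 13.1% of BMAL1-CLOCK sites (exact adjusted p = 2.57e-04), and chromosomes X (6.20 and 7.97%, exact adjusted p = 0.00256) and 8 (3.03 and 4.04%, exact adjusted p = 0.0275) held more of the BMAL1-CLOCK sites. Mitochondrial DNA had 13 GR sites with 7592 reads, 152 of them methylated, and no BMAL1-CLOCK site.

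**Figure D4:**
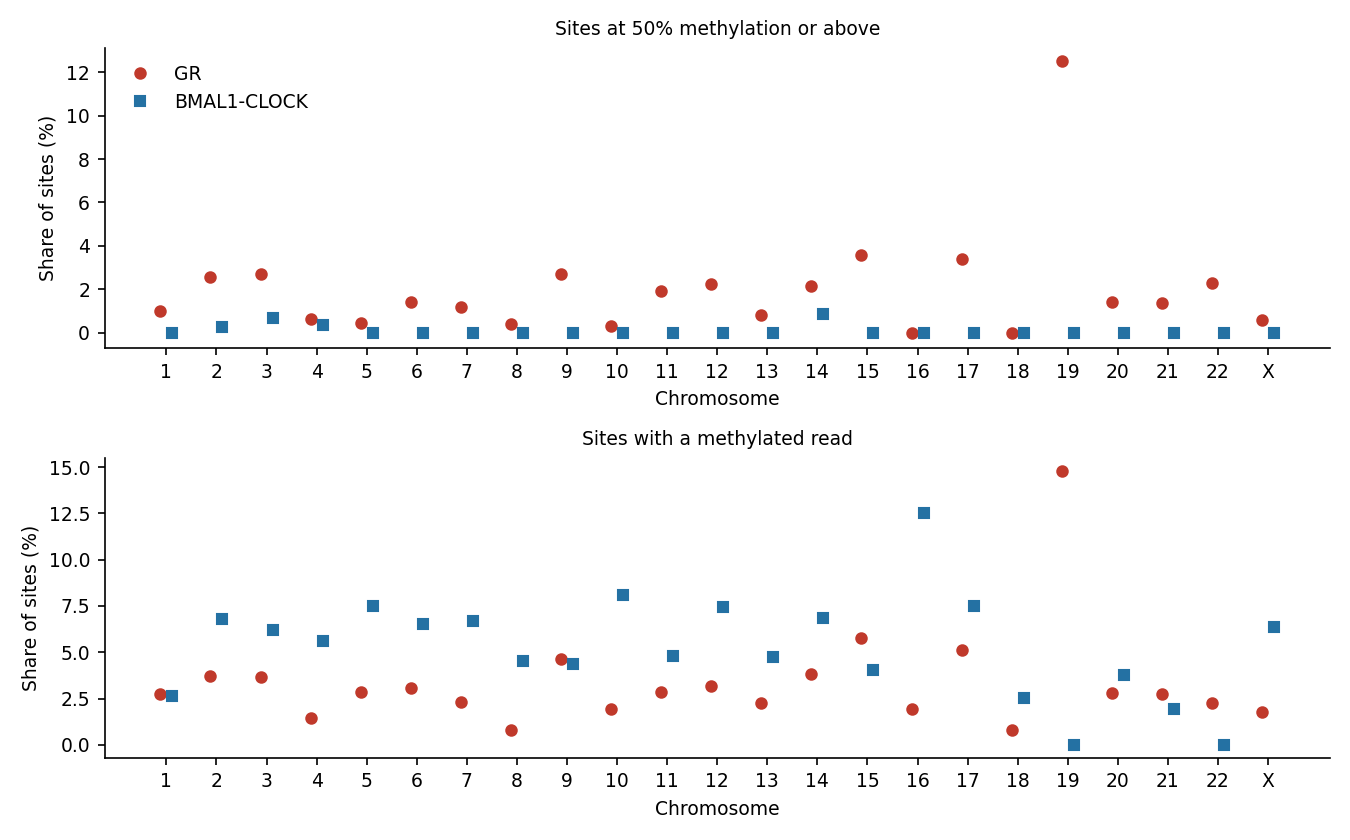
Share of sites (percent) at 50% methylation or above (top) and with a methylated read (bottom) on each chromosome, GR as red circles and BMAL1-CLOCK as blue squares. Each point is 1 chromosome in 1 library, with no error drawn. In the top panel chromosome 19 lies highest for GR at 12.5%, and in the bottom panel BMAL1-CLOCK lies above GR on 17 of 23 chromosomes.

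Genes with sites in both libraries allow a comparison by nearest gene, although the sites of one gene can lie far apart. The GR and BMAL1-CLOCK sites nearest BC028204, for example, lay 7624 and 1020810 bp from its TSS. The GR sites were assigned to 4944 nearest genes and the BMAL1-CLOCK sites to 2922, and 1385 genes were common, 28.0% of the former and 47.4% of the latter. These shared genes held 3323 GR sites (41.0%) and 2501 BMAL1-CLOCK sites (57.5%), most of them far from a start, with a median distance of 102034 bp for GR and 113574 bp for BMAL1-CLOCK. Only 15 of the 122 highly methylated GR sites (12.3%) were among them.

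Within shared genes GR sites were less often methylated in any read, and the excess of highly methylated GR sites was small. With each gene as a stratum the highly methylated share was higher in GR by 0.402 points (interval 0.0922 to 0.712, exact Cochran-Mantel-Haenszel test, p = 0.0130). With coverage fixed as well no such excess was seen, but many sites dropped out. With strata of gene and Total together the difference was 0.0615 points (2222 GR and 1540 BMAL1-CLOCK sites, exact p = 1). At sites with exactly 4 reads it was 0.0242 points (1949 and 1263 sites, exact p = 1). Neither test held the fully methylated GR sites at SYNJ2, CR613142, AK123758, NACA2, DOK5 and TLR4, whose genes lacked a BMAL1-CLOCK site of equal Total. These 2 tests therefore cannot decide whether the excess holds at equal coverage. Any methylated read was less frequent in GR, by -3.94 points within genes (interval -5.03 to -2.85, exact p = 2.56e-14) and by -4.13 points with gene and Total as strata (exact p = 3.79e-11). Shared genes had 15 highly methylated GR (0.451%) and 3 BMAL1-CLOCK sites (0.120%). At equal Total, with 14 of 3308 and 3 of 2491 sites tested, their difference of 0.298 points did not pass (exact p = 0.0671). Genes with sites in only one library had 107 of 4784 GR sites (2.24%) and 2 of 1852 BMAL1-CLOCK sites (0.108%). At equal Total, with 98 of 4755 and 2 of 1851 tested, the difference was 2.77 points (exact p = 6.02e-20). For any methylated read the order was reversed, with -3.41 points among shared genes (exact p = 9.55e-12) and -0.746 points among the others (exact p = 0.191). A change of the odds ratio between shared and other genes was detected for any methylated read (Zelen's exact test, p = 2.22e-04) and not for highly methylated sites (p = 0.0824).

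GR sites themselves differed between shared and other genes. With Total and TSS bin as strata, the highly methylated share was lower at shared genes by -1.06 points (interval -1.52 to -0.599, exact Cochran-Mantel-Haenszel test, p = 2.62e-05). By bin, the difference passed from over 5 to 100 kb, where it was -1.44 points (exact p = 9.47e-06), and did not pass in the others (exact p from 0.133 to 0.464). For BMAL1-CLOCK the same contrast was -0.0549 points (interval -0.297 to 0.188, exact p = 0.613), on 5 sites in all. These contrasts were added after the shared genes had been seen.

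**Figure D5:**
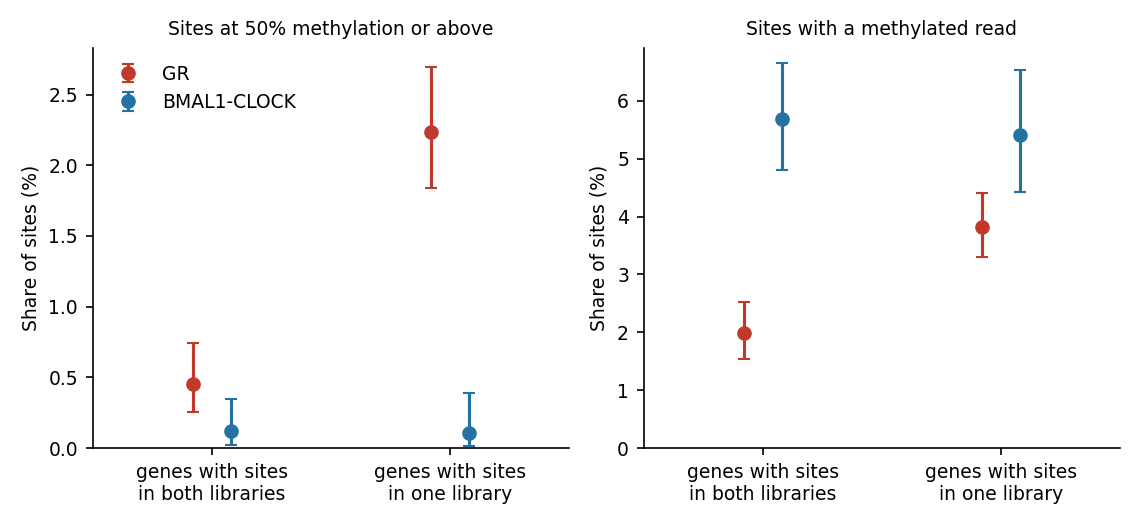
Share of sites (percent) at 50% methylation or above (left) and with a methylated read (right) for sites whose nearest gene has sites in both libraries or in only one, GR in red and BMAL1-CLOCK in blue. Points are shares and bars exact 95% binomial intervals over sites. On the left GR has 0.451% at shared genes and 2.24% at the others, and BMAL1-CLOCK is near 0.1% at both.

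Gene by gene, most shared genes had no methylated read to compare. Of the 1385 genes, 1200 (86.6%) had none in either library, 52 had one or more in GR only, 124 in BMAL1-CLOCK only and 9 in both. The pooled level was higher in GR at 55 genes and in BMAL1-CLOCK at 130. By Fisher's exact test of methylated and unmethylated reads with Benjamini-Hochberg adjustment, 8 genes had an unadjusted p under 0.05 and 1 was called, with GR higher, 0.0722% of those tested, against 0.0% with BMAL1-CLOCK higher. The called gene was TLR4, a receptor of innate immunity, with 18 of 22 reads methylated over 2 GR sites and 0 of 10 over 2 BMAL1-CLOCK sites (exact adjusted p = 0.0215). All 18 methylated reads came from 1 site, at position 119885124 of chromosome 9 and 378694 bp from the TSS, so the call rests on that site. Next was NACA2, with 6 of 6 GR and 0 of 8 BMAL1-CLOCK reads (exact p = 3.33e-04, adjusted p = 0.231).

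A highly methylated GR site was found at 15 of the 1385 shared genes and a highly methylated BMAL1-CLOCK site at 3. On the GR side, SYNJ2, a phosphoinositide phosphatase gene, CR613142 and AK123758 had 4 of 4 methylated reads at their site, DOK5, an adaptor of receptor tyrosine kinases, had 7 of 7, and NBPF1 had 4 of 5. TLR4 and NACA2 are given above. The others, FAM5C, ERBB4, LINGO2, ANGPTL2, C10orf97, CR594591, DQ576041 and MOSPD2, had 2 of 4. ERBB4, a neuregulin receptor, had 2 of 16 methylated GR reads over 4 sites and 0 of 15 BMAL1-CLOCK reads over 3. On the BMAL1-CLOCK side, LOC151760 had 4 of 13 methylated reads over 3 sites, with 0 of 27 over 6 GR sites (exact p = 0.00782, adjusted p = 1), FBXO33 had 3 of 9, with 0 of 12 in GR, and DIRC1 had 2 of 4, with 0 of 4 in GR. Of the 9 genes methylated in both libraries, AK123758 had 4 of 4 GR and 1 of 5 BMAL1-CLOCK reads, and SPIN4 had 1 of 82 GR and 2 of 9 BMAL1-CLOCK reads. CDKAL1, a tRNA-modifying enzyme gene, had 1 of 21 and 1 of 10.

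The 10 shared genes with the most sites held 2 methylated of 809 GR reads (0.247%) and 9 of 699 BMAL1-CLOCK reads (1.29%). Over all shared genes 0.614% of GR and 1.23% of BMAL1-CLOCK reads were methylated, and over the whole libraries 2.21 and 1.23%. PCDH9, a protocadherin gene, had 35 GR sites with 0 of 154 reads methylated and 18 BMAL1-CLOCK sites with 3 of 102. OR7E156P, an olfactory receptor pseudogene, had 0 of 96 over 22 sites and 3 of 74 over 15. DACH1, a transcriptional cofactor gene, had 0 of 68 reads in each library. SPRY2, an inhibitor of receptor tyrosine kinase signalling, had 0 of 56 in GR and 1 of 70 in BMAL1-CLOCK, and KCNT2, a potassium channel gene, had 1 of 40 and 1 of 53. At AK057471, SLITRK5 and BC042366 both libraries had 0 methylated reads, from 48 to 159 reads a library. DSC3, a desmosomal cadherin gene, had 0 of 67 and 1 of 58, and GPC6, a glypican gene, 1 of 42 and 0 of 51.

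In 11 places a GR and a BMAL1-CLOCK site lay within 200 bp of each other, from 3 to 171 bp apart, a distance chosen after the data were seen. None of the 45 GR reads and none of the 48 BMAL1-CLOCK reads there was methylated, which allows levels of up to 6.67 and 6.25%. Since 96.9% of all GR and 94.4% of all BMAL1-CLOCK sites had no methylated read, nothing particular to these places is read from it. The closest pair lay nearest SEC11A, a signal peptidase gene, on chromosome 15, with 0 of 4 reads at position 83036834 in GR and 0 of 6 at position 83036837 in BMAL1-CLOCK. Among these pairs were also ESRRG, an orphan nuclear receptor gene, GPC5 and PCDH9.

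The genes of the 2 pathways given here had few sites and no methylated read, which was also true of 96.9% of all GR and 94.4% of all BMAL1-CLOCK sites, so nothing particular to these genes is read from it. From a list of circadian clock genes, 8 genes had 9 GR sites with 39 reads (RORB, NFIL3, PER3, USP2, NPAS2, CSNK1E, TEF and BHLHE40). None of these reads was methylated, which allows up to 7.69%. In the BMAL1-CLOCK library RORA and RORB, orphan nuclear receptor genes, each had 1 site with 0 of 4 reads methylated. CRY1, a repressor of BMAL1-CLOCK, had its E-box site 15262 bp from the TSS with 0 of 4 reads. Of 33 symbols of genes known to be induced by glucocorticoids, 6 had 7 GR sites with 0 of 35 reads methylated, which allows up to 8.57%, and 2, ZBTB16 and TSC22D3, had BMAL1-CLOCK sites with 0 of 8, which allows up to 37.5%. The GR site with the most reads in this list lay 460 bp from the TSS of FKBP5, a cochaperone of GR, with 0 of 8. Of the transfected genes, NR3C1 had 9 of 3324 and 7 of 3393 reads methylated and DNMT3A 1 of 498 and 2 of 478 in GR, and NR3C1 had 0 of 5 and 0 of 4 in BMAL1-CLOCK. In the GR library, whose cells carried both vectors, reads from the vectors and from the chromosome cannot be told apart at these genes.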

How the data were processed

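BisChIP-seq was analysed for 1 GR and 1 BMAL1-CLOCK anti-Flag library, with the IgG libraries as background. For each library the authors mapped 2 merged sequencing runs to hg18 (Bismark), took out duplicates (SAMtools) and the doubly read part of read pairs, and listed cytosines covered by 4 or more reads. No tool version is given in the sources used here. Each deposited table holds raw counts, the methylated reads and the total reads of a cytosine, with strand, nearest gene and unsigned TSS distance. Low counts per site limit precision, and duplicates that remained would make reads less independent.

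Repeated rows of the GR anti-Flag tables (2075 AGAACA and 344 TGTTCT, identical chromosome, position and strand) were dropped. Each table was assigned the motif in its name, because AGAACA also stands in the sequence column of the TGTTCT table. Shares have exact Clopper-Pearson 95% intervals, and a count of 0 is given the limit of 3 counts. Libraries were compared by exact conditional Cochran-Mantel-Haenszel tests (difference of shares by Mantel-Haenszel with Sato's error), Fisher's exact test and Zelen's exact test, with Benjamini-Hochberg adjustment, in Python 3.11.15, pandas 2.3.3 and scipy 1.17.1, tested on simulated data. Per chromosome at least 20 sites in each library were required.

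Sites were named by rule: all highly methylated BMAL1-CLOCK sites, the 10 such GR sites with the most reads, the 10 deepest sites of each library, shared genes with such a site or called, the 10 shared genes with the most sites in the library where they have fewer, and lists of clock, glucocorticoid-induced and transfected genes. The members, lists and tests were chosen with earlier results of these data known. Alternatives changed the coverage minimum, the threshold, the strata, the motif and the sites left out. One item of the clock list is not reported here. Unconverted ChIP-seq libraries were not analysed here, and no genome was used.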

Additional observations from a re-analysis of the deposited data

Results flagged for a closer look

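Differences between GR and BMAL1-CLOCK that were not the same across parts of the data are listed here, from Zelen's exact test over sites. Across the 4 bins of TSS distance the odds ratio changed for highly methylated sites (exact p = 0.00292) and for sites with a methylated read (exact p = 1.21e-04). Across sites with 4, 5 to 7 and 8 or more reads it changed for highly methylated sites (exact p = 2.84e-04) and for sites with a methylated read (exact p = 1.76e-17). Between shared and other nearest genes it changed for sites with a methylated read (exact p = 2.22e-04). Within the GR library, the highly methylated share differed between shared and other genes at equal Total and TSS bin (exact Cochran-Mantel-Haenszel test, p = 2.62e-05). Read classes and the contrast within GR were chosen after the data were seen.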

How the results depend on the processing

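No paired analysis was possible because each side has 1 library. Of 94 alternative values, 76 kept their direction and side of the threshold, 12 lost significance or calls, 1 gained it and 5 reversed. With the threshold at 25% or above, the difference in highly methylated sites at equal Total reversed to -0.527 points (exact p = 0.0841), and at 75% or above or above 50% it held (1.29 and 1.45 points). The share with a methylated read at equal Total gave -0.292 points with at least 5 reads (exact p = 0.766) and reversed to 12.9 points with at least 8 (exact p = 0.0130), 10.2 points with at least 10 (exact p = 0.430) and 1.75 points when at least 2 methylated reads were required (exact p = 2.65e-21), the last chosen after seeing the data.

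With AGAACA alone, differences lost significance within shared genes (0.196 points for highly methylated sites, -2.22 points for a methylated read), from over 1 to 5 kb (1.53 and -5.24 points), from over 5 to 100 kb for a methylated read (-0.911 points) and beyond 100 kb for a methylated read (-2.62 points), and beyond 100 kb the difference in highly methylated sites reversed to -0.355 points. That reversal did not pass (exact Cochran-Mantel-Haenszel test, adjusted p = 0.776), with 0 highly methylated of 310 AGAACA sites in the bin. At 1 kb or less AGAACA alone gave no value, since no site with a methylated read lay in a stratum of both libraries. With TGTTCT alone, -3.57 points for a methylated read from over 1 to 5 kb no longer passed. Within shared genes the highly methylated difference no longer passed at sites with exactly 4 reads (0.0242 points) or with gene and Total as strata (0.0615 points, added later). Both of these tests dropped the fully methylated GR sites of the shared genes. Without transfected, mitochondrial and unplaced sequence, the highly methylated difference at 1 kb or less came to 8.92 points and passed. At sites with exactly 4 reads, 0 shared genes were called by reads, of 864 tested, since the deep TLR4 site drops out. With Total as a stratum in each chromosome (added later) 3 chromosomes were called for a methylated read, 1 of them with GR higher, in place of 6. AGAACA has 1149 sites against 6958 of TGTTCT, which limits its tests. At 4 reads the levels can only be 0, 25, 50, 75 or 100%, so there the alternatives at 25% and at 2 methylated reads repeat the other measure.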
